A study of Macaca fascicularis with 64 samples.

Results

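Proteasome subunit transcripts were followed in the islet cells of cynomolgus monkeys. The members are the rows of the deposited count tables whose symbol is PSMA, PSMB, PSMC, PSMD or PSME followed by a number, without the interferon-inducible catalytic subunits PSMB8 and PSMB9, which makes 36 of 21041 genes. PSMC3IP, whose symbol starts the same way, encodes no proteasome subunit and was left out. The members are set by name and not by any measured value, although earlier results of these data were known when they were chosen. Of the 36, 34 passed the filter on low counts in every fit on α-cells, β-cells or several cell types. PSMB11 and PSME1 did not, and are described by their counts.

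The proteasome is the protease that degrades ubiquitin-tagged proteins in the cytosol and nucleus, including proteins drawn back out of the endoplasmic reticulum, where secretory cells fold their hormones. Its core particle is a barrel of outer α rings (PSMA genes), which gate the entrance, and inner β rings (PSMB genes), of which PSMB5, PSMB6 and PSMB7 carry the cutting sites. Regulatory particles cap the barrel with a base of ATPases (PSMC genes), which unfold substrates and thread them into the core, and with scaffold, receptor and lid subunits (most PSMD genes). The PSME genes encode other caps, which open the core without ATP.

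Single islet cells came from 16 healthy monkeys, 8 young (4 to 6 years) and 8 old (18 to 21 years), with 4 females and 4 males at each age and 4 libraries per monkey. The islets came from the tail of the pancreas, and the cells were picked by mouth pipette and sequenced with unique molecular identifiers (UMIs), which count each captured molecule once, so levels were not divided by transcript length. Each monkey's tissue was taken on a day of its own, so the monkey and the day of collection cannot be told apart.

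Each cell with over 800 genes and over 10000 UMIs was assigned to the type whose hormone it held most of, glucagon (GCG) for α-cells, insulin (INS) for β-cells, somatostatin (SST) for δ-cells and pancreatic polypeptide (PPY) for PP-cells. Of 6141 barcodes, 5908 were retained, 2957 young and 2951 old, and the total per monkey ranged from 21982838 to 35850398 UMIs. There were 4503 α-cells and 1219 β-cells, each in all 16 monkeys, 112 δ-cells with at least 5 cells in 11 monkeys, and 74 PP-cells with at least 5 in 6 monkeys. Of the markers listed beside the hormones, HHEX, LEPR, RBP4 and PCSK1 were highest in δ-cells, IAPP, MAFA, NKX6-1 and SLC2A2 in β-cells, TTR, GC and IRX2 in α-cells and ETV1 in PP-cells. MEIS2 and ID4 (listed for PP-cells), LOXL4 (α-cells) and ADCYAP1 (β-cells) were highest in another type. The β-cells also held 22849 ± 7317 CPM of GCG (UMIs scaled to a total of 1000000) (SD, n = 16) against 76263 ± 9702 in α-cells, and the highest hormone was at least 4 times the next in 384 of 1219 β-cells, 40 of 112 δ-cells, 8 of 74 PP-cells and 4204 of 4503 α-cells. Young male 3 stood apart, with the lowest median depth, 41388.5 UMIs per cell, and 112 of the 247 cells rich in markers of non-endocrine cells. It also held 115 of the 123 α-cells with inflammatory transcripts. Results that rest on this monkey are given with and without it, or with its own value beside those of the others.

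For each monkey and type the UMIs of all its cells were added up, so that a level in CPM is the share of a type's captured RNA and not the amount per cell. The 36 subunits together made up 4740 ± 574 CPM of the RNA of α-cells (SD, n = 16 monkeys), 5508 ± 635 CPM in β-cells (n = 16), 4782 ± 675 CPM in δ-cells (n = 11) and 3811 ± 484 CPM in PP-cells (n = 6). In α-cells the sum ran from 4010 through a median of 4624 to 6602 CPM, and in β-cells from 4344 through 5516 to 6873 CPM. These ranges overlapped, but within a monkey the sum was higher in β- than in α-cells in 15 of 16, in PP-cells it was lower than in α-cells in 6 of 6, and in δ-cells it was higher than in α-cells in 6 of 11. In both types the highest sum was that of young male 3. The 4 hormones hold a different share of each type's RNA, and when they were left out of the totals the mean sums were 5182 CPM in α-cells, 6043 in β-cells, 5441 in δ-cells and 4432 in PP-cells. The sum in PP-cells was then lower than in α-cells in 5 of 6 monkeys, and the other counts were unchanged.

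The α-cell levels covered a wide range (see the plot of levels by cell type). The most abundant subunit was PSMB1, a β-ring subunit without a cutting site, at 379 ± 54.7 CPM, followed by the catalytic subunits PSMB6 at 337 ± 66.6, PSMB7 at 266 ± 41.9 and PSMB5 at 250 ± 33.8 CPM (SD, n = 16). Neighbours in this order lay within each other's spread. PSMB1 and PSMB6 were also the highest members in β-cells, at 441 ± 97.0 and 312 ± 97.2 CPM.

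By place in the complex, the 6 α-ring genes summed to 997 ± 149 CPM in α-cells and 1146 ± 171 in β-cells, and the 7 constitutive β-ring genes to 1711 ± 175 and 1817 ± 262 CPM. The 6 ATPases summed to 655 ± 94.2 CPM in α-cells and 917 ± 176 in β-cells, and the 10 scaffold, receptor and lid genes to 1015 ± 94.7 and 1229 ± 125 CPM. PSMA3, PSMA8, PSMD7, PSMD9 and PSMD10 had no row under these symbols and are not in these sums. Within a ring or cap, levels differed between genes. Among the ATPases of α-cells, PSMC5 stood at 242 ± 43.4 CPM and PSMC6 at 26.0 ± 5.31 CPM, and the highest PSMC6 value, 37.4 CPM, lay below the lowest PSMC5 value, 185 CPM. Among the lid subunits the lowest was PSMD11, at 23.1 ± 4.91 CPM, against 163 ± 24.0 CPM for PSMD3.

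**Figure D1:**
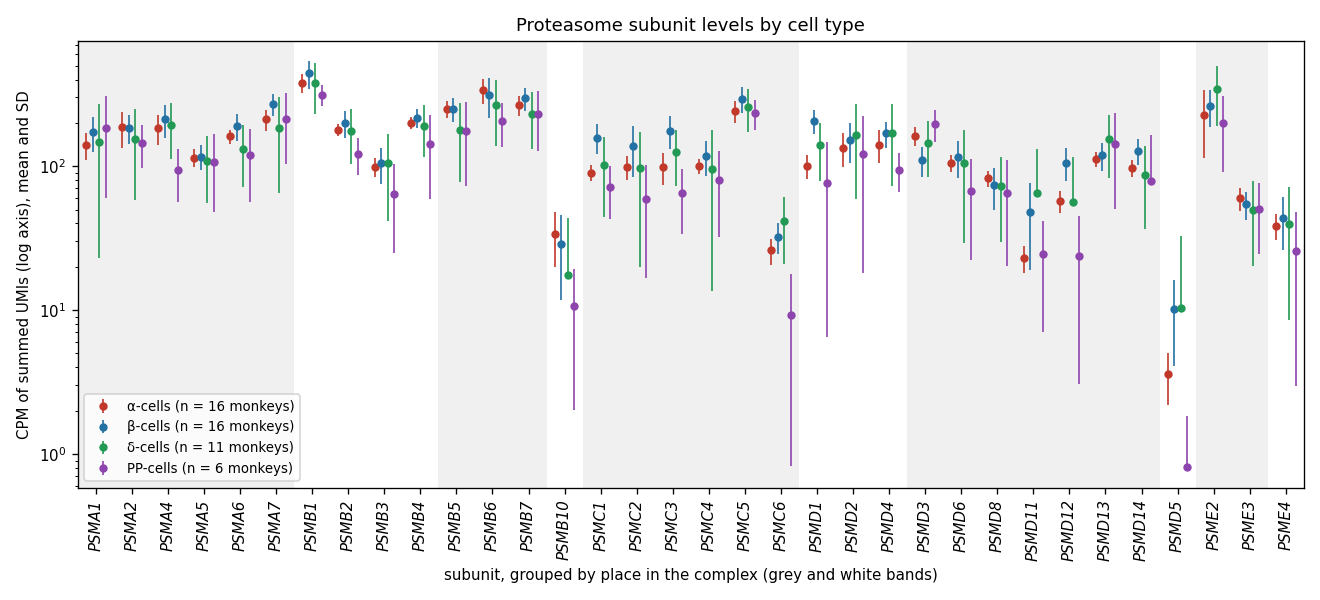
Mean and SD over monkeys of each subunit's level in CPM (log axis) in α-, β-, δ- and PP-cells, with grey and white bands for places in the complex and with PSMB11 and PSME1 left out. PSMB1 and PSMB6 lie at the top in α- and β-cells, and PSMD5, PSMC6 and PSMD11 are among the lowest.

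Some members belong to special forms of the particle. PSMB10, the inducible subunit that replaces PSMB7 in the immunoproteasome, was present at 34.1 ± 14.3 CPM in α-cells and 28.9 ± 17.0 CPM in β-cells, which gave 0.131 ± 0.0593 and 0.101 ± 0.0588 UMIs per UMI of PSMB7 (SD, n = 16). PSMB11, the catalytic subunit of thymic epithelium, had 25 UMIs in all retained cells. PSMD5, a chaperone that helps to assemble the ATPase ring and is absent from the finished particle, was low at 3.62 ± 1.42 CPM in α-cells and 10.1 ± 6.04 in β-cells.

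PSME1 and PSME2 encode partner proteins that alternate in the ring of the interferon-inducible cap. PSME2 was among the higher members, at 225 ± 110 CPM in α-cells and 262 ± 74.7 in β-cells, and had 99683 UMIs in all. Young male 3 held its highest value in each of these types, 626 CPM in α-cells, where the median was 195, and 468 CPM in β-cells, where the median was 270. PSME1 was listed with 0 of 433942461 UMIs, which allows at most 0.00691 CPM by a count of 3 and covers counting error only. Whether the annotation and mapping let reads of PSME1 be assigned to it was not tested, so the 0 is a listing and not a measured absence. The caps PSME3, found in the nucleus, and PSME4, which takes part in histone turnover, lay at 59.9 ± 10.9 and 38.7 ± 7.81 CPM in α-cells.

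The comparison of β-cells with α-cells, made within the same 16 monkeys, asked where the subunits differ between the main endocrine types. Of the 34 members tested, 6 were higher in β-cells and 1 was lower by edgeR's quasi-likelihood test with Benjamini-Hochberg adjustment over 14648 genes, a threshold of 0.05 and the monkey as a block. Over all genes, 7.54% were higher and 18.1% lower. An unadjusted p under 0.05 was reached by 8 members, or 23.5%, against 35.2% of all genes. The members' median difference was 0.16 on the log2 scale, against -0.20 over all genes tested, and 26 of the 34 values were above 0. All 6 that rose belong to the regulatory particle or its assembly, while none of the 6 α-ring and 7 constitutive β-ring genes passed the test. The difference between these groups of subunits was not itself tested.

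PSMD1 and PSMD2 are the scaffolds of the base, on which ubiquitin receptors dock. PSMD1 had a lowest, median and highest level of 65.0, 99.2 and 141 CPM in α-cells and of 126, 214 and 278 CPM in β-cells. Every monkey had more PSMD1 in its β-cells, although the lowest β-cell value lay inside the α-cell range. The log2 difference was 1.02 ± 0.18 (SE; 95% interval 0.65 to 1.38; adjusted p = 1.9e-05). PSMD2 did not pass, at 0.14 with an interval of -0.29 to 0.57.

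Among the lid subunits, PSMD12 had a lowest, median and highest level of 35.2, 59.7 and 72.4 CPM in α-cells and of 49.6, 107 and 139 CPM in β-cells. It was higher in β-cells in every monkey, by 0.82 ± 0.27 log2 units (adjusted p = 0.0203), and 1 of the 16 β-cell values lay inside the α-cell range. PSMD11 ran from 15.7 through 22.6 to 30.6 CPM in α-cells and from 23.9 through 39.7 to 148 CPM in β-cells. Its highest β-cell value came from young female 2, which had 11 β-cells and, in them, the highest sum of acinar markers among young β-cell samples, 338 CPM over 3 genes, whose part was not tested. PSMD11 was higher in β-cells in 15 of 16 monkeys, by 0.88 ± 0.27 log2 units (adjusted p = 0.0122).

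PSMD3, another lid subunit, went the other way. It ran from 115 through 160 to 222 CPM in α-cells and from 72.3 through 111 to 183 CPM in β-cells. It was lower in the β-cells of all 16 monkeys, by -0.60 ± 0.15 log2 units (adjusted p = 0.00149). Since all genes had a median of -0.20, PSMD3 lay 0.39 log2 units below that median and PSMD1 1.22 above it.

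Of the ATPases, PSMC3 and PSMC1 rose and the other 4 did not pass. PSMC3 ran from 70.9 through 93.5 to 176 CPM in α-cells and from 113 through 171 to 268 CPM in β-cells, a log2 difference of 0.82 ± 0.17 (adjusted p = 0.000159). PSMC1 ran from 76.9 through 87.4 to 121 CPM in α-cells and from 88.2 through 149 to 258 CPM in β-cells, a difference of 0.78 ± 0.21 (adjusted p = 0.00415). Both were higher in β-cells in all 16 monkeys, and the highest value of each in either type was that of young male 3. PSMC2, PSMC4, PSMC5 and PSMC6 had differences between 0.16 and 0.39.

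Members that moved the same way in every monkey were PSMD1, PSMD12, PSMC3 and PSMC1, which were higher in β-cells, and PSMD3, which was lower. These are 4 and 1 of 34, beside 4.34% and 6.91% of the 11646 genes that reached 1 CPM in at least as many sums as not. The lines that join the values of each monkey show this (see the plot of monkeys in both types).

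**Figure D2:**
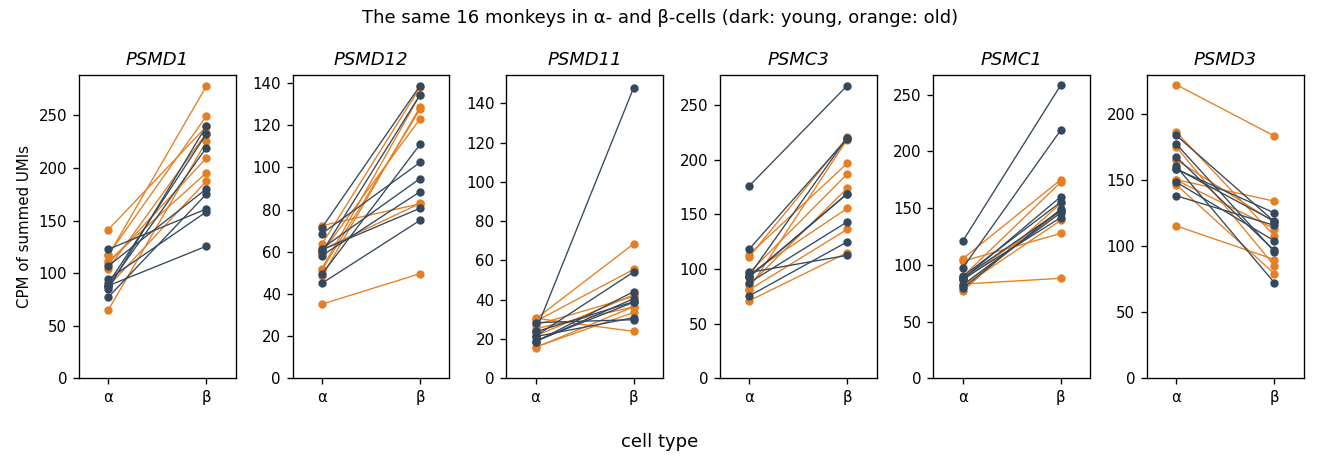
Level in CPM of the summed UMIs of 6 members in the α- and β-cells of each of 16 monkeys, with a line per monkey, dark for young and orange for old. Each line rises for PSMD1, PSMD12, PSMC3 and PSMC1, falls for PSMD3, and rises in 15 of 16 monkeys for PSMD11.

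The chaperone PSMD5 had the largest difference, 1.21 ± 0.47 log2 units, with an adjusted p of 0.0499. Its levels ran from 1.07 through 3.65 to 6.21 CPM in α-cells and from 0.00 through 8.58 to 20.9 CPM in β-cells, and it was higher in β-cells in 14 of 16 monkeys. The call held in only 2 of 16 fits with a monkey left out, those without young male 3 and young female 3, and the highest adjusted p was 0.0835. It was also lost with size factors of the RLE type (adjusted p = 0.0507), with thinning of each cell to 10000 UMIs (adjusted p = 0.0632) and with no filter on low counts.

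The subunits with cutting sites and the inducible cap did not pass the test between β- and α-cells. PSMB5 differed by -0.04 (95% interval -0.40 to 0.32), PSMB6 by -0.18 (-0.51 to 0.15) and PSMB7 by 0.12 (-0.16 to 0.41) on the log2 scale. PSMB10 differed by -0.33 (-1.08 to 0.43) and PSME2 by 0.22 (-0.08 to 0.53). The ubiquitin receptor PSMD4 differed by 0.23 (-0.17 to 0.64) and the deubiquitinase PSMD14, which removes the ubiquitin chain at the entrance, by 0.35 (-0.11 to 0.82).

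Many cells held more than a single hormone, and the type calls depend on the highest. With the cells kept whose highest hormone was at least 4 times the next, 3 members remained higher in β-cells, PSMD5, PSMD1 and PSMD12, and PSMD3 remained lower. PSMC3 then differed by 0.60 (adjusted p = 0.0588), PSMC1 by 0.55 (adjusted p = 0.0666) and PSMD11 by 0.72 (adjusted p = 0.301). The rule kept 384 of 1219 β-cells, so the loss of cells cannot be told apart from the change of type calls. The share of all genes called under it is not given here. PSMD1, PSMD12 and PSMD3 passed in each of 10 alternatives and with each monkey left out.

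**Figure D3:**
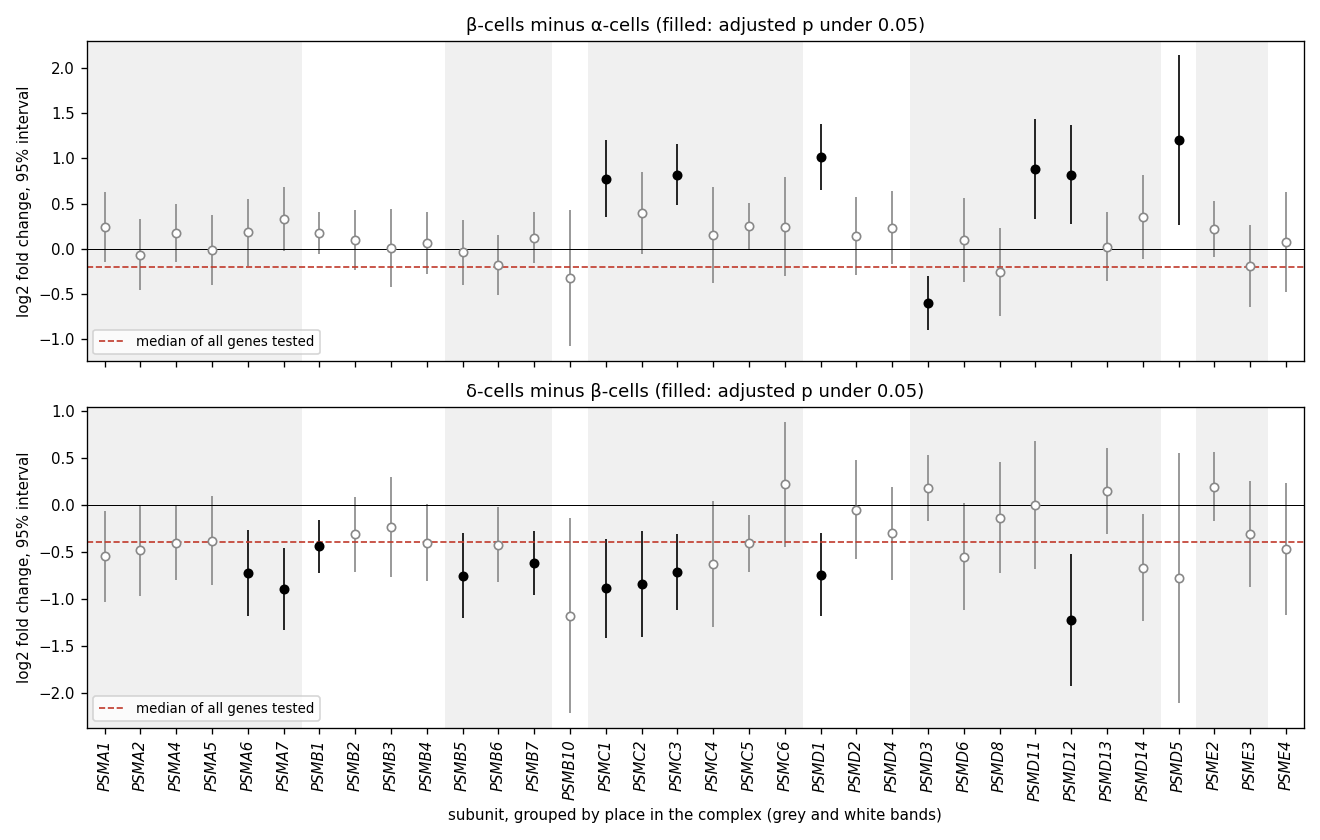
Log2 differences of 34 subunits with 95% intervals, β-cells minus α-cells (top) and δ-cells minus β-cells (bottom), filled where the adjusted p was under 0.05, with the median of all genes tested as a dashed line. In the top panel 6 members are filled above 0 and PSMD3 below, and in the bottom panel 10 are filled, all below 0.

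The δ-cells were fewer, and their comparisons rest on 11 monkeys with between 5 and 14 δ-cells each. Against α-cells, 1 member was higher and 4 were lower, beside 3.82% and 19% of all genes, so the 4 were a smaller share than that of genes at large, and the members' median of -0.32 lay above that of all genes, -0.57. Of the members, 10 had an unadjusted p under 0.05, or 29.4% against 36.1% of all genes. The 4 called lower were β-ring genes, and they include every cutting subunit tested. PSMB5 fell by 0.79 ± 0.22 log2 units, from 250 ± 33.8 CPM in α-cells (n = 16) to 177 ± 99.5 CPM in δ-cells (n = 11; adjusted p = 0.00744), and was lower in 10 of 11 monkeys. PSMB6 fell by 0.60 ± 0.20 (adjusted p = 0.0241) and PSMB7 by 0.49 ± 0.17 (adjusted p = 0.0281). PSMB6 lost its call without old female 2 (-0.54), young female 3 (-0.56) or young female 4 (-0.54), and PSMB7 without old female 1 (-0.35), old males 2, 3 and 4 (-0.37, -0.45 and -0.47) or young female 1 (-0.45).

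PSMB10 differed by -1.50 ± 0.51 log2 units in δ-cells (adjusted p = 0.0271), with no UMI in young females 2 and 4 and young male 2 and a highest value of 83.5 CPM in old female 1. The call was lost when any of 6 monkeys was left out, old female 2, old male 2, young females 2 and 4 or young males 2 and 3, with differences between -1.36 and -1.30. PSMD11 was higher than in α-cells by 0.89 ± 0.34 (adjusted p = 0.0480) and in 10 of 11 monkeys. Its highest δ-cell value, 243 CPM, was that of young male 3, without which the difference was 0.55 (adjusted p = 0.198). It was lost as well, at differences of 0.82 to 0.94, without old female 2, 3 or 4, old male 4, young female 1, 2 or 4 or young male 1. PSME2 differed by 0.42 (adjusted p = 0.0790), PSMD4 by -0.06 and PSMD14 by -0.31.

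These δ-cell calls depended on the scaling. RLE size factors moved the median of all genes by 0.26 and the share of calls that were higher from 16.8% to 32.7%. Under them PSMB5 differed by -0.54 (adjusted p = 0.0680), PSMB6 by -0.35, PSMB7 by -0.22 and PSMB10 by -1.26, none past the threshold, while PSMD11 at 1.15 and PSME2 at 0.68 were higher. Relative to the median of all genes in the main scaling, PSMB5 lay at -0.22, PSMB6 at -0.03, PSMB7 at 0.08 and PSMB10 at -0.93. They also changed under the stricter hormone rule. With the cells kept whose highest hormone was at least 4 times the next, PSMB5 at 0.20, PSMB6 at 0.40 and PSMD11 at -0.88 changed direction. None of these passed (adjusted p of 0.812, 0.469 and 0.687). The rule kept 40 of 112 δ-cells, so the loss of cells cannot be told apart from the change of type calls.

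Against β-cells of the same 11 monkeys, δ-cells had 10 members lower and 0 higher by the edgeR test, beside 13.1% and 4.96% of all genes. Of the 34, 16 had an unadjusted p under 0.05, or 47.1% against 30.9% of all genes. DESeq2 called 2 higher and 4 lower. Over all genes, 49.6% of the DESeq2 calls were higher, against 27.5% of the edgeR calls, so the 2 counts have different backgrounds. PSMD12 fell most, by 1.22 ± 0.35 log2 units, from 106 ± 27.5 CPM in β-cells (n = 16) to 56.8 ± 58.5 in δ-cells (n = 11; adjusted p = 0.0101). It was lower in 10 of 11 monkeys and passed in each of 9 alternatives.

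The other members named here as lower in δ- than in β-cells were the α-ring genes PSMA7 and PSMA6, the ATPases PSMC1, PSMC2 and PSMC3, the scaffold PSMD1 and the cutting subunits PSMB5 and PSMB7. Their log2 differences were -0.89 for PSMA7, -0.72 for PSMA6, -0.88 for PSMC1, -0.84 for PSMC2, -0.71 for PSMC3, -0.74 for PSMD1, -0.75 for PSMB5 and -0.62 for PSMB7, with adjusted p between 0.00228 and 0.0294. The call of PSMA6 was lost without old female 2 (-0.69) or old male 2 (-0.58), and that of PSMC2 without old male 2, young female 1 or 4, or young male 1 or 2, at differences between -0.79 and -0.72. The median was -0.45 over the members and -0.40 over all genes. With RLE size factors, which moved the median of all genes by 0.26 and the share of calls that were higher from 27.5% to 48.6%, PSMD12 and PSMA7 passed and the other 8 did not. Under the rule that the highest hormone be at least 4 times the next, 3 members were lower, among them PSMD12 at -2.92 and PSMC2 at -3.01. PSMB5 at 0.17 and PSMC3 at 0.032 changed direction without passing. With 40 of 112 δ-cells and 384 of 1219 β-cells kept, the loss of cells cannot be told apart from the change of type calls here either. The comparison shares its β- and δ-cell samples with those against α-cells, in which PSMD1, PSMD12, PSMC1 and PSMC3 were named for β-cells. PSMB6 differed by -0.42, PSMB10 by -1.17, PSME2 by 0.20, PSMD4 by -0.30 and PSMD14 by -0.66 without passing.

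PP-cells were compared with α-cells in 6 monkeys, 2 young and 4 old. Of 34 members, 2 passed, both lower, and 0 were higher, beside 4.84% and 1.48% of all genes. DESeq2 called 1 higher and 4 lower, where 43.5% of its calls over all genes were higher, against 23.4% of the edgeR calls. By edgeR 10 members, or 29.4%, had an unadjusted p under 0.05, against 22.5% of all genes. The α-ring subunit PSMA4 fell by 1.02 ± 0.26 log2 units, from 183 ± 43.7 CPM to 94.2 ± 37.4 CPM (adjusted p = 0.0113), with PP-cell values of 103, 108, 105 and 145 CPM in the old monkeys and of 37.7 and 65.9 CPM in the young, and was lower in 6 of 6 monkeys. PSMB10 fell by 2.12 ± 0.67 (adjusted p = 0.0448), and its 6 PP-cell values lay between 0.00 and 22.7 CPM. The PSMB10 call held in 5 of 16 fits with a monkey left out, those without young male 1 or 3 or young female 2, 3 or 4, and the highest adjusted p, without young male 4, was 0.112.

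Among the members, 6 of 34 were lower in the PP-cells of each of the 6 monkeys, beside 13.0% of all genes. The members' median difference was -0.53, close to the -0.49 over all genes. RLE size factors moved the latter by 0.22 and the share of calls that were higher from 23.4% to 45.3%, and neither PSMA4 (-0.78, adjusted p = 0.0607) nor PSMB10 (-1.91, adjusted p = 0.0825) passed under them. The catalytic subunits PSMB5, PSMB6 and PSMB7 differed by -0.66, -0.73 and -0.19, PSMD4 by -0.44, PSMD14 by -0.74 and PSME2 by -0.13.

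Other genes of the ubiquitin-proteasome pathway were taken from a fixed list of assembly chaperones, bound cofactors, shuttles, ubiquitin genes, unfolding factors and transcriptional controls. Of 30 tested between β- and α-cells, 4 were higher and 1 was lower, beside the 7.54% and 18.1% of all genes. NFE2L2 and NFE2L1, transcription factors that induce proteasome genes, were higher by 1.00 ± 0.26 (adjusted p = 0.00237) and 0.60 ± 0.13 (adjusted p = 0.000312). UBXN4, which recruits the segregase VCP to the endoplasmic reticulum, was at 546 ± 81.5 CPM in β-cells and 312 ± 31.9 in α-cells, ranges that did not overlap, a difference of 0.77 ± 0.16 (adjusted p = 0.00025). The deubiquitinase UCHL5, which sits on the base, was higher by 0.76 ± 0.25 (adjusted p = 0.0176), and the ubiquitin gene UBB was lower by -0.41 ± 0.08 (adjusted p = 0.000137). With a highest hormone at least 4 times the next, NFE2L1 differed by 0.38 (adjusted p = 0.132) and UCHL5 by 0.79 (adjusted p = 0.0668), and neither passed.

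Of the same 30 genes, 0 rose and 1 fell in δ- against α-cells, namely NSFL1C, a cofactor of VCP, at -1.28 ± 0.46 (adjusted p = 0.0376), beside 3.82% and 19% of all genes. In PP-cells 0 rose and 2 fell, UBA6, a ubiquitin-activating enzyme, at -1.78 ± 0.46 (adjusted p = 0.0128) and VCP at -0.78 ± 0.21 (adjusted p = 0.0171), beside 1.48% and 4.84% of all genes. The call of VCP was lost with RLE size factors (-0.56, adjusted p = 0.101), without cells high in non-endocrine markers (-0.75, adjusted p = 0.0671), with at least 20 cells, and without old male 2, old male 4 or young male 4. The call of UBA6 was lost with thinning (-1.17, adjusted p = 0.152), with at least 20 cells and without old male 2. Against β-cells, δ-cells had UBB higher by 0.35 ± 0.10 (adjusted p = 0.00917) and 7 genes lower, beside 4.96% and 13.1% of all genes. The 4 largest of these were NSFL1C at -1.62, the deubiquitinase USP14 at -1.21, UBXN4 at -0.95 and the core chaperone PSMG3 at -0.93. The calls of NSFL1C against α-cells and of PSMG3 each held in 7 of 16 fits with a monkey left out. PSMG3 kept its call in 1 of 9 alternatives. With RLE size factors NSFL1C against α-cells (adjusted p = 0.117) and USP14 (adjusted p = 0.0518) did not pass, while UBB, UBXN4 and NSFL1C against β-cells did. UBB was lost with thinning (adjusted p = 0.151). Under the rule that the highest hormone be at least 4 times the next, none of these δ-cell calls passed, and UBXN4 was at -0.23 (adjusted p = 0.775).

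The study asked what changes with age. No subunit passed the test between old and young monkeys in any cell type. In α-cells 0 of 34 members and 0.00% of 13486 genes passed by edgeR, DESeq2 called 0 members, and 3 members, or 8.82%, had an unadjusted p under 0.05, against 6.88% of all genes. The sum of the members was 4872 ± 755 CPM in young and 4608 ± 312 CPM in old α-cells (SD, n = 8 each). Without young male 3 the young value was 4625 ± 307 CPM (n = 7).

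The α-cell members with an unadjusted p under 0.05 were the scaffold PSMD2 and the lid subunits PSMD6 and PSMD8. PSMD2 ran from 92.2 through 114 to 139 CPM in young and from 117 through 133 to 229 CPM in old monkeys, a log2 difference of 0.37 ± 0.12 (adjusted p = 0.704). PSMD6 ran from 102 through 114 to 131 CPM in young and from 80.6 through 97.2 to 109 CPM in old monkeys, a difference of -0.29 ± 0.09 (adjusted p = 0.636). The ages overlapped for each, and PSMD8 differed by -0.25 ± 0.10 (adjusted p = 0.713).

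Among the cutting subunits, PSMB5 stood at 248 ± 30.3 CPM in young and 253 ± 39.0 in old monkeys, with a difference of 0.02 (95% interval -0.24 to 0.27). PSMB6 differed by -0.03 (-0.31 to 0.26), PSMB7 by -0.16 (-0.39 to 0.06), PSMD4 by -0.14 (-0.47 to 0.18) and PSMD14 by -0.07 (-0.32 to 0.19). PSMB10 ran from 17.1 to 46.9 CPM in young and from 19.4 to 65.1 CPM in old α-cells, a difference of 0.30 (-0.29 to 0.90), and PSME2 differed by -0.23 (-0.74 to 0.28). Young male 3 had 626 CPM of PSME2, against 172 to 232 in the other young monkeys, and the medians were 189 CPM in young and 196 in old monkeys. Its PSMD4 was 267 CPM, against 116 to 163 in the other young monkeys and up to 176 in the old. The differences of these 2 genes without this monkey are not given here.

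The lean of the α-cell values was smaller without young male 3. Of 34 differences, 25 were below 0 with a median of -0.10, against 0.00 over all genes, but without this monkey the count was 19 and the median -0.03. Among females, where it has no part, 27 of 34 were below 0 with a median of -0.10, against 0.01 over all genes. This monkey had the highest α-cell level of 17 of the 34 members, or 50.0%, against 14.5% of 12017 genes. In its β-cells it was highest for 11 members, or 32.4%, against 13.4% of genes. Its α-cells also had the highest sum of 5 immune markers, 1869 CPM, where the sum ran from 0.266 CPM among the young and from 0.127 to 205 CPM among the old. Of these markers CD74 led, and the part of such cells in the subunit levels was not tested.

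**Figure D4:**
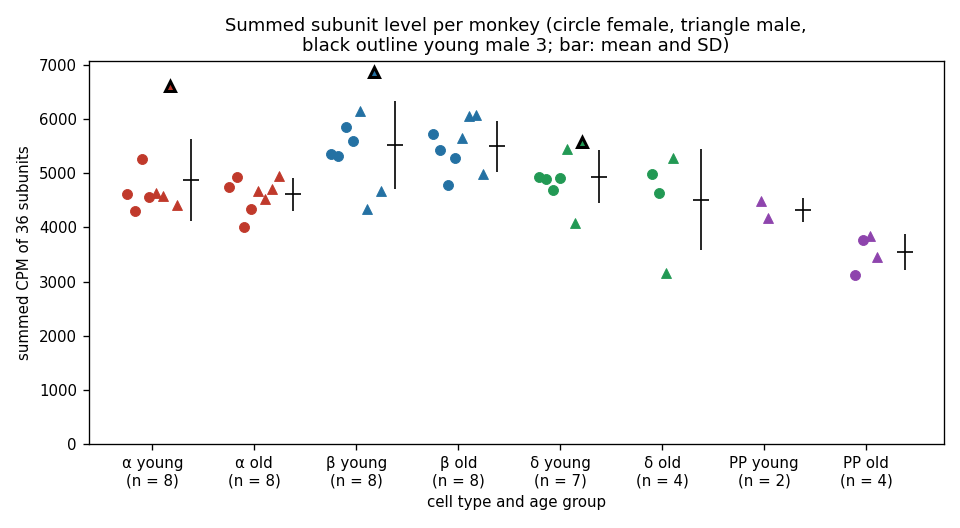
Summed CPM of 36 subunits per monkey, by cell type and age, with circles for females, triangles for males, a black outline for young male 3, and a bar for the mean and SD. Young male 3 is the highest point among the α-cells (6602 CPM) and the β-cells (6873 CPM), and the ages overlap in α-, β- and δ-cells.

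In β-cells 0 of 34 members passed the age test, beside 0.045% of 11101 genes. DESeq2 called 0, and 0 members had an unadjusted p under 0.05, against 5.52% of all genes. The sum was 5520 ± 803 CPM in young and 5495 ± 470 CPM in old β-cells (n = 8 each), and the median difference was 0.02 over the members and 0.01 over all genes.

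PSMB5 differed between old and young β-cells by 0.13 (-0.23 to 0.49), PSMB6 by -0.27 (-0.69 to 0.16), PSMB7 by -0.18 (-0.51 to 0.15) and PSME2 by 0.00 (-0.43 to 0.44). PSMB10 had 24.1 ± 10.5 CPM in young and 33.7 ± 21.4 in old β-cells, a difference of 0.50 (-0.25 to 1.24). PSMD4 differed by -0.12 (-0.49 to 0.24) and PSMD14 by -0.01 (-0.36 to 0.35). The scarce PSMD5 had the wide interval of -0.59 to 1.82.

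**Figure D5:**
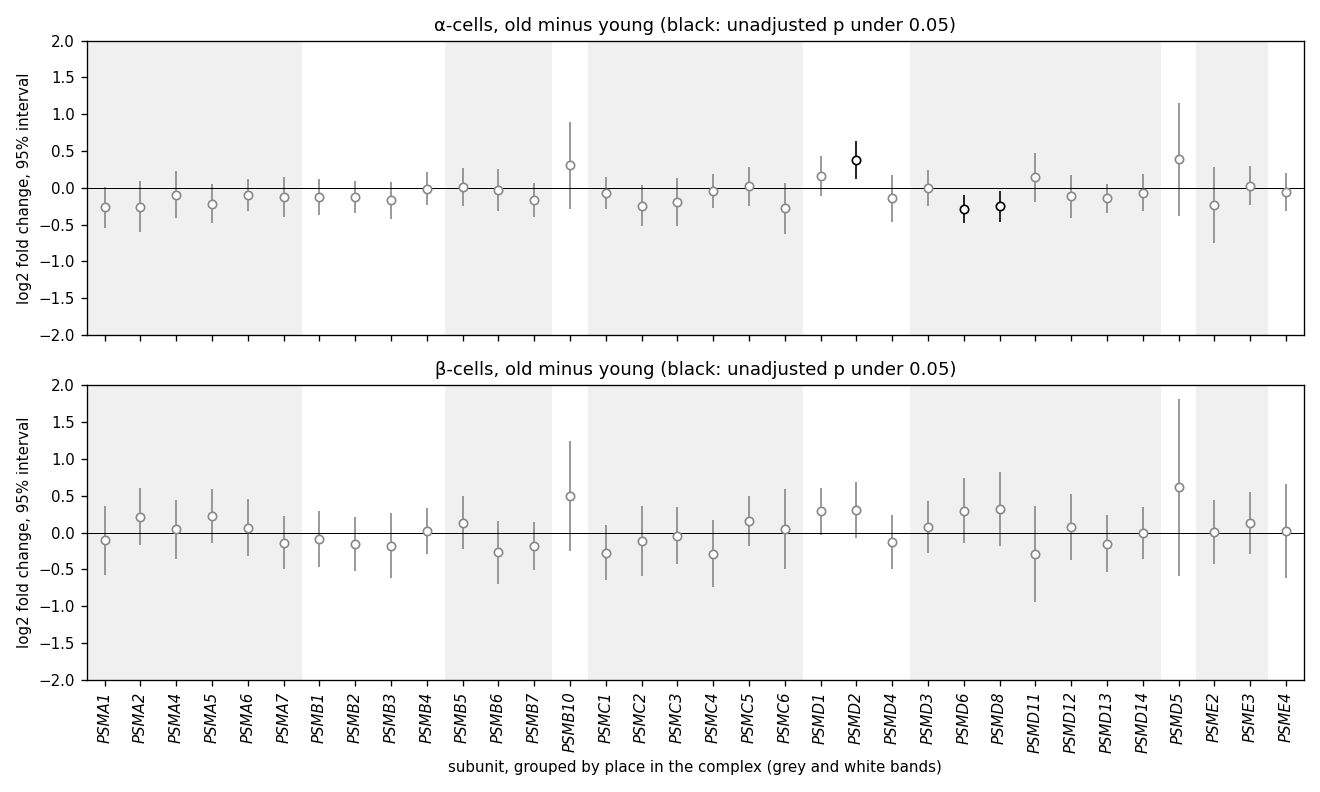
Log2 differences of 34 subunits between old and young monkeys with 95% intervals, in α-cells (top) and β-cells (bottom), black where the unadjusted p was under 0.05. PSMD2, PSMD6 and PSMD8 are black in α-cells and no member is black in β-cells.

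The age difference in β-cells was set against that in α-cells in a single fit over both types. None of the 34 members passed by edgeR, beside 0.00% of 15441 genes, and DESeq2 called 0. The unadjusted p was under 0.05 for 4, or 11.8% against 5.96% of all genes, namely PSMD6 (0.58), PSMD8 (0.56), PSMA2 (0.48) and PSMA5 (0.46), with adjusted p between 0.738 and 0.804.

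In δ-cells, with 7 young and 4 old monkeys, 0 of 32 members passed by edgeR or DESeq2, beside 0.00% of 7405 genes, and 2, or 6.25%, had an unadjusted p under 0.05, against 3.77% of all genes. The sum ran from 4089 through 4917 to 5577 CPM in young δ-cells, and was 3159, 4810 (the median) and 5274 CPM at the same points in old ones. The members with an unadjusted p under 0.05 were PSMC4 at 1.72 and PSMA6 at -1.16. The differences of PSMB5, PSMB6, PSMB7, PSMD4, PSMD14 and PSME2 lay between -1.07 and 1.12. In PP-cells, with 2 young and 4 old monkeys, 0 of 31 members passed by either tool, beside 0.00% of 6568 genes, and 2, or 6.45%, had an unadjusted p under 0.05, against 6.04% of all genes. These were PSMD2 at -3.21 and PSMD14 at -2.58. PSMB5 differed by -0.02, PSMB6 by -0.18, PSMB7 by -1.06, PSMD4 by 0.25 and PSME2 by -1.13 there. The sums of both young PP-cell samples, 4482 and 4172 CPM, lay above those of the 4 old ones, which ran from 3130 to 3849 CPM. The young samples were young males 1 and 4, with 6 and 8 PP-cells, and the old ones old females 1 and 2 and old males 2 and 4. No young female had at least 5 PP-cells, and the separation of the sums was not tested. PSMB10 was not tested for age in δ- or PP-cells because of its low counts.

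No member passed the test between the sexes. In α-cells and in β-cells 0 of 34 passed between females and males by edgeR or DESeq2, beside 0.00% of genes in each type by edgeR. No member had an unadjusted p under 0.05, against 5.83% of all genes in α-cells and 4.0% in β-cells. The interaction of sex and age called 0 members by either tool, beside 0.00707% of genes in α-cells and 0.00% in β-cells by edgeR. Its unadjusted p was under 0.05 for 0 members in α-cells, against 5.61% of all genes. In β-cells it was for 2, PSMB5 and PSMD13, or 5.88% against 4.23% of all genes. In male α-cells 25 of 34 age differences were below 0, but without young male 3 24 were above 0. The members' median was -0.08 and then 0.05, against -0.01 and 0.00 over all genes. In female α-cells 27 were below 0, with a median of -0.10 against 0.01. In male β-cells 22 were above 0, with a median of 0.11 against -0.004 over all genes. Without young male 3 31 were, at 0.23 against -0.02. In female β-cells 13 were above 0 and 21 below, at -0.11 against 0.04. These counts were not tested, and members tended to vary together across monkeys.

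Young male 3 was also the only monkey with at least 5 α-cells of the inflamed kind, defined by a summed CPM above 200 of FDCSP, UBD, VCAM1, CCL2 and BCL2A1. These genes, none of them a member, were chosen with earlier results of these data known. With 1 monkey there was no test, and its 115 inflamed cells were set beside its 163 other α-cells, cells with under 10000 UMIs beside the spike-ins left out, with exact 95% Poisson intervals that cover counting error only. The median ratio of the members was 1.04, the same as that of 8834 genes with UMIs in the other cells and at least 10 CPM in either kind. Of the 33 members at 10 CPM or more in either kind, 13 had the higher interval in the inflamed cells and 10 the lower, beside 38.7% and 32.1% of 8855 genes, which is near the background.

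Of the interferon-inducible members, PSMB10 was at 48.5 CPM (43.8 to 53.6) in the inflamed and 45.5 CPM (41.4 to 49.9) in the other α-cells. PSME2 was at 567 CPM (551 to 584) in the inflamed cells and at 676 CPM (660 to 692) in the others, both above the 284 CPM in the α-cells of old female 2, the next highest monkey. PSMD5 had 23 UMIs in the inflamed and 0 in the other cells. PSMC6 had the largest ratio among members with UMIs in both kinds of cell, 2.08, and PSMD12 the smallest, 0.60.

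Across monkeys, subunit levels tended to vary together, which is given as a description because the points share library, depth and day. Over 561 pairs of members, the median correlation of log2(CPM + 1) across 16 monkeys was 0.27 in α-cells, against 0.03 over all pairs of 12017 genes, and 74.3% of the pairs were positive. Without young male 3 it was 0.15, and with the means of the sex and age groups removed it was 0.22. In β-cells it was 0.16 over the members and 0.04 over all genes, and 0.16 without that monkey. Among the pairs that ranked highest without young male 3, the ATPases PSMC3 and PSMC5 correlated at 0.71 in α-cells and 0.81 in β-cells over all 16 monkeys. PSMB6 and PSME2 did so at 0.88 in α-cells, or 0.75 without young male 3. Picked from the top of 561 pairs, they are not typical of the members.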

How the data were processed

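The deposited tables hold UMI counts per gene and cell, raw and not normalized, 1 table for each of 64 libraries. Per the study's methods, the authors kept uniquely mapped reads, assigned them to genes with htseq-count and counted each UMI once, on the build Macaca_fascicularis_5.0. The submitters' processing notes name CASAVA 1.8 and TopHat2 2.0.12. The 95 spike-in rows, 5.41% of UMIs, were left out of levels and tests.

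Each monkey was assigned to its age and sex group by its code in the series' design text, and the replicate number only names a monkey. All cells were used that had over 800 genes and 10000 UMIs. The study's filter on mapping rate was not used here, and doublets were not called. No cells had identical counts, and the 96 barcode sequences recur in the libraries by design. UMIs were summed per monkey and cell type, with at least 5 cells per sum. Between 338 and 381 cells per monkey were retained, with median depths of 41388.5 to 92680.5 UMIs per cell, and the scarce types are measured with less precision.

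Sums were tested with edgeR 4.0.16 (quasi-likelihood F test, TMM scaling, filterByExpr, R 4.3.3) across all genes that passed the filter, with Benjamini-Hochberg adjustment and a threshold of 0.05. Cell types were compared with the monkey as a block, ages with sex as a covariate and sexes with age. The standard error is the size of the log2 difference over the square root of F, and intervals use the t distribution with edgeR's degrees of freedom. DESeq2 1.42.0, RLE scaling, no filter, thinning to 10000 UMIs, over 2000 genes and 20000 UMIs, a highest hormone at least 4 times the next, removal of cells rich in non-endocrine markers, at least 20 cells per sum, totals without hormones, other covariates or blocks, and leaving out each monkey were the alternatives. The fits were tested on simulated data. Sums, correlations and figures used Python 3.11.15, numpy 2.4.6, pandas 2.3.3, scipy 1.17.1 and matplotlib 3.10.9.

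The members and lists were chosen with earlier results of these data known. Named were, in each comparison, up to 8 members per direction by size of difference among those past the threshold, always PSMB5, PSMB6, PSMB7, PSMB10, PSME1, PSME2, PSMD4 and PSMD14 between types and ages, and up to 4 other genes of the pathway per direction. Members with an unadjusted p under 0.05 and those at the ends of an order were named as such. The counts used here had no row under the symbols PSMA3, PSMA8, PSMD7, PSMD9 and PSMD10, so these genes were not analysed and are in none of the sums.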

Additional observations from a re-analysis of the deposited data

Results flagged for a closer look

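In groups of 4 to 10 monkeys, 10 of 56 sets of values held a monkey that lay far from the others of its group relative to the group's range (Dixon's test), where chance flags about 5% of groups. Of these 10, 5 were young male 3 among the 8 young monkeys in α-cells. PSMB6 was 540.61 CPM there, against 285 to 375 in the other young monkeys. PSME2 was 626.29 CPM, against 172 to 232, PSMD4 was 266.99 CPM, against 116 to 163, and PSMD14 was 135.57 CPM, against 83.7 to 104. The sum of all members was 6602.3 CPM in this monkey, against 4295 to 5263.

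Others came from old monkeys or small samples. In old α-cells, PSME2 was 283.82 CPM in old female 2, against 175 to 216, PSMD4 was 175.6 CPM in old female 1, against 122 to 138, and PSMD14 was 115.71 CPM in old male 2, against 87.5 to 98.2. In old β-cells, PSMB10 was 82.951 CPM in old female 2, against 17.1 to 40.2. In young δ-cells, PSMB10 was 50.408 CPM in young female 3, against 0.00 to 10.9.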

How the results depend on the processing

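Of the 7 members called between β- and α-cells, 3 kept their call in every alternative and with every monkey left out, as did 0 of 5 for δ- against α-cells, 0 of 2 for PP- against α-cells and 1 of 10 for δ- against β-cells. The number of members higher in β- than in α-cells was 3 with a highest hormone at least 4 times the next and 12 with at least 20 cells, where 2 were lower. The share of all genes called is not set beside the counts of this section. It can move as well, so the counts show no change particular to the members. For δ- against α-cells, 4 were higher and 2 lower by DESeq2, 2 and 0 with RLE size factors, and 2 and 2 without cells high in non-endocrine markers. There 0 were higher with no filter, thinning (8 lower), the stricter cell filter or the stricter hormone rule, and 0 were lower with no replicate block. For PP- against α-cells, 1 was higher and 4 lower by DESeq2, 1 was lower with no filter or without cells high in non-endocrine markers, and 0 with RLE size factors, thinning or at least 20 cells, which left 1 PP-cell sample, assumed to vary like the other types. For δ- against β-cells, 2 were higher and 4 lower by DESeq2, and 2 were lower with RLE size factors and 3 under the stricter hormone rule. Under that rule 7 called differences changed sign, PSMB5 (0.20), PSMB6 (0.40) and PSMD11 (-0.88) in δ- against α-cells and ADRM1 (1.14), NFE2L1 (0.11), PSMB5 (0.17) and PSMC3 (0.032) in δ- against β-cells. None of these 7 passed under that rule, which kept 40 of 112 δ-cells. The cause was not tested. The mean sum in PP-cells was 4432.3 CPM without hormones in the totals, and the median correlation in α-cells was 0.15 without young male 3.

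With each monkey left out in turn, 5 to 6 members were higher and 1 lower in β- than in α-cells, 0 to 2 higher and 2 to 6 lower in δ- than in α-cells, 1 to 4 lower in PP- than in α-cells and 7 to 14 lower in δ- than in β-cells. Every age and sex count of members stayed at 0. Differences that were not called changed sign 34 times under alternatives and 43 times with a monkey left out.

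Monkeys with the same number did not deviate together (correlations of -0.06 to 0.14 in α-cells and -0.10 to 0.06 in β-cells, 8 pairs each), so the numbers do not pair them, and a replicate block on the number gave 0 members called for age and sex, the same as without it. The block could not be fitted in PP-cells. At least 20 cells left no δ-cell comparison and the stricter hormone rule no PP-cell comparison. With 1 monkey, the alternatives for inflamed α-cells were not run.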
